A study of Mus musculus with 24 samples.

Results

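The prostaglandin pathway was followed in sorted mouse colon fibroblasts through 10 genes: Ptgs1, Ptgs2, Ptges, Ptgis and Ptgds for synthesis, Ptger2, Ptger3, Ptger4 and Ptgfr for reception, and Hpgd for breakdown. The genes were chosen by name, and a probe set annotated to that symbol alone was read for 9 of them, out of 30827 genes measured on the array. Ptgs1 was not analysed here. Each of the 9 genes had 1 probe set, so no choice between probe sets entered the values.

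The series holds 24 Affymetrix Mouse Transcriptome Arrays, 1 per RNA sample, of colon cells sorted as Epcam-, CD45-, CD31- and gp38+, where gp38 is podoplanin, a surface protein of fibroblasts. All 24 samples came from mice carrying Villincre-ERT2, an inducible Cre recombinase driven by the promoter of the epithelial gene villin, together with a ZsGreen reporter, so the controls carry both as well and the deletions are aimed at the epithelium, not at the sorted cells. The WT group (IhhWT-ApcWT) had 7 arrays, the ApcKO group (IhhWT-ApcKO) had 8, and the IhhKO-ApcKO group had 9. The labels give neither age, sex, nor the time after induction, and they do not say that each array is a separate mouse, so p-values measure the spread between these samples, part of which may be technical. A comparison of ApcKO with WT asks what changes in the fibroblasts when the epithelium loses the tumour suppressor Apc, and a comparison of IhhKO-ApcKO with ApcKO asks what changes when the epithelium also loses Indian hedgehog.

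Prostaglandins are made from arachidonic acid that phospholipases release from membranes. Cyclooxygenases, the constitutive Ptgs1 and the inducible Ptgs2, turn it into prostaglandin H2, and terminal synthases turn that into prostaglandin E2 (Ptges), prostacyclin (Ptgis) or prostaglandin D2 (Ptgds). The products leave the cell and act on G protein-coupled receptors of nearby cells, and Hpgd oxidises them to inactive forms. In the colon, stromal cells are a known source of prostaglandin E2, and cyclooxygenase inhibitors are known to reduce adenomas in mice with mutant Apc. Hedgehog ligands made by the epithelium are received by fibroblasts, where they raise Gli1, Ptch1 and Hhip.

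The Hedgehog targets were read first, as the check of the labels, because Ihh is deleted in cells that were not sorted. Gli1, a transcription factor and target of the pathway, lay between 7.98 and 8.20 on the log2 scale in WT and between 8.03 and 8.47 in ApcKO. In IhhKO-ApcKO, 8 of 9 arrays lay between 6.64 and 7.05, and the array labelled IhhKO-ApcKO B9 stood apart at 7.99, within the range of WT. Gli1 fell by 1.31 from ApcKO to IhhKO-ApcKO (SE 0.13, limma adjusted p = 4.03e-06). Without B9 the 8 other IhhKO-ApcKO arrays averaged 6.78 ± 0.14 (SD), against 8.22 in ApcKO. For any of the 9 prostaglandin genes in which B9 was the lowest or highest of its group, values are also given without it. The summed fibroblast markers (the mean of 9 genes) lay between 10.41 and 10.94 on all arrays. The leukocyte gene Ptprc, which encodes CD45, was under the median of the negative control probe sets on all 24. Other leukocyte markers were not: Cd68 averaged 9.10 and was above the 95th percentile of those controls on all 24. Tyrobp, Fcer1g, Cd3e, Cd79a and Laptm5 were above their median on all 24, Lyz2 on 22 and Itgam on 6. The epithelial markers (12 genes) ranged from 5.58 to 8.74 within IhhKO-ApcKO alone despite the Epcam- gate, and 0 of the 12 passed in any comparison (Epcam was at 6.89 in ApcKO and 5.98 in WT, SE of the difference 0.47, adjusted p = 0.97). All 12 were higher in ApcKO than in WT, with a median difference of 0.69, and 11 of 12 were lower in IhhKO-ApcKO than in ApcKO, with a median of -0.26. None of the tuft cell (8 genes), leukocyte (9), mast cell (7) or mesothelial markers (6) passed in any comparison either. The codes carry a letter whose meaning the labels do not give: A for every WT array and 1 ApcKO array (A9), B for the other ApcKO arrays and 1 IhhKO-ApcKO array (B9), and C for the rest, so letter and genotype can hardly be told apart.

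None of the 9 prostaglandin genes passed the test in any of the 3 planned comparisons at an adjusted p of 0.05. Across all 30827 genes the same limma fit called 0% in ApcKO against WT, 0.0454% in IhhKO-ApcKO against ApcKO and 0.0811% in IhhKO-ApcKO against WT. At an unadjusted p under 0.05 the members numbered 1 of 9 in ApcKO against WT (Ptgs2, lower), where 3.12% of all genes were lower at that level. They numbered 1 of 9 in IhhKO-ApcKO against ApcKO (Ptgfr, lower; 2.34% of all genes) and 3 of 9 in IhhKO-ApcKO against WT (Ptger4, Ptgfr and Hpgd, all lower; 4.58% of all genes). Counted in either direction, 4.41%, 4.94% and 7.62% of all genes had an unadjusted p under 0.05 in these comparisons, in the same order. The median difference over the members was -0.08, -0.01 and -0.12 in these comparisons, beside -0.02, 0.01 and -0.01 over all genes. In sorted bulk samples, fewer cells of a type and less RNA per cell cannot be told apart.

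**Figure D1:**
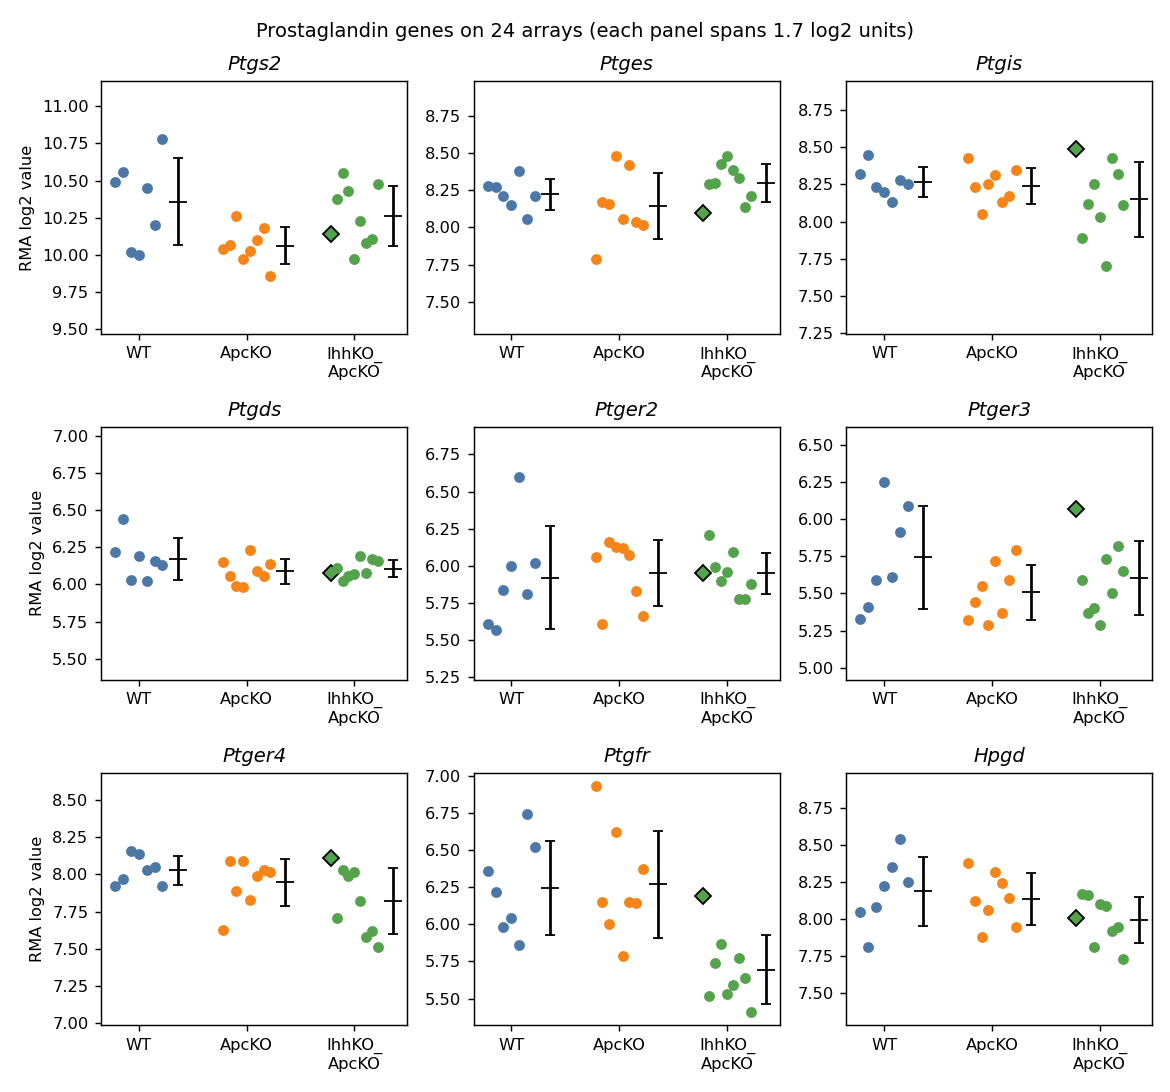
RMA log2 values of the 9 measured prostaglandin genes on each of 24 arrays, by genotype (7 WT, 8 ApcKO, 9 IhhKO_ApcKO); each point is an array, the diamond is the array labelled IhhKO_ApcKO B9, and the bars show the group mean and SD. Most groups overlap almost fully, and 8 of 9 IhhKO_ApcKO arrays have a Ptgfr value of 5.87 or less.

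Among the synthesis genes, Ptgs2, the inducible cyclooxygenase, was the one whose WT and ApcKO values differed most. In WT it ranged from 9.995 through a median of 10.45 to 10.78, averaging 10.36 ± 0.29 (SD, n = 7). In ApcKO it ranged from 9.86 through 10.06 to 10.26, averaging 10.07 ± 0.12 (SD, n = 8), and in IhhKO-ApcKO from 9.97 through 10.23 to 10.55, averaging 10.26 ± 0.20 (SD, n = 9). All 8 ApcKO arrays lay under the WT mean, but only 2 lay under every WT array, because WT arrays A3 and A4 were as low as the ApcKO group. The difference of ApcKO from WT was -0.29 (SE 0.10, 95% interval -0.51 to -0.08), and limma gave an adjusted p of 0.97 over all genes. From ApcKO to IhhKO-ApcKO the difference had the opposite sign, 0.20 (SE 0.10, 95% interval -0.00429 to 0.40, adjusted p = 1.00), and IhhKO-ApcKO against WT was -0.09 (SE 0.10, adjusted p = 0.88). Both differences with ApcKO use the same 8 arrays, so the opposite signs are not independent of each other. The epithelial marker mean ran from 6.46 to 8.60 in ApcKO and from 6.02 to 8.30 in WT, with all 12 markers higher in ApcKO. With group means removed, Ptgs2 and that mean had a Pearson r of -0.055 over 24 arrays (permutation p = 0.809, adjusted p = 0.89). The part of the epithelial signal in the Ptgs2 difference between genotypes was not tested. Ptgs2 was above the 95th percentile of the array's 5222 negative control probe sets on all 24 arrays.

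The promoter of Ptgs2 is shown because Ptgs2 is a textbook immediate early gene and its values were compared below with such genes. It is RefSeq's stretch from 250 bases before to 50 after the gene's start on build GRCm38.p6, chr1:150099781-150100080, plus strand, 5′ to 3′. The capitals mark the letters CGTCA, the core of a cyclic AMP response element (TGACG on the other strand), overlapping CACGTG, an E-box, which begin 13 and 16 bases after that start.
Ptgs2: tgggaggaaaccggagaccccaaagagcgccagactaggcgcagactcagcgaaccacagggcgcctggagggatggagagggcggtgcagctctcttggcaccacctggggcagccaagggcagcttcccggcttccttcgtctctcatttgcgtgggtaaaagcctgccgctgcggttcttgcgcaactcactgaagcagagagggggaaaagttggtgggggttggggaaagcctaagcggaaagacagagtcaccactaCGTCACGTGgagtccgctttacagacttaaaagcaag
Searched on both strands, TGACG was present in 20.8% of 32851 mouse promoters of the same length and CACGTG in 7.15%. The other letters searched in the members' promoters were TATAAA (13.6% of promoters), TGANTCA for AP-1 (7.81%), GACCACCCA for GLI (0.253%) and the kappa B motif of NF-kB (0.411%). The RefSeq table held a promoter for 9 of the 10 members, the unmeasured Ptgs1 included and Ptgis not, so Ptgis was not searched. Of these 9, Ptgds held TGACTCA, Hpgd held TATAAA, and Ptgs2 held the pair above. A match is a description of letters and not a site in use.

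The terminal synthases differed little between genotypes. Ptges, the inducible prostaglandin E synthase that works with Ptgs2, ranged from 8.06 through 8.21 to 8.38 in WT, from 7.79 through 8.11 to 8.48 in ApcKO and from 8.10 through 8.30 to 8.48 in IhhKO-ApcKO. The groups overlapped, and ApcKO array A9 was the lowest of all 24. Its difference was -0.08 (SE 0.08) in ApcKO against WT, 0.16 (SE 0.08, 95% interval -0.00227 to 0.31) in IhhKO-ApcKO against ApcKO, and 0.08 (SE 0.08) in IhhKO-ApcKO against WT. The lowest of these 3 adjusted p-values was 0.87. The part of the epithelial signal in these Ptges differences was not tested. B9 held the lowest Ptges value of its group, 8.10, and the 8 other IhhKO-ApcKO arrays averaged 8.32 ± 0.11 (SD), against 8.14 in ApcKO.

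Ptgis, the prostacyclin synthase, averaged 8.26 ± 0.10 (SD, n = 7) over the WT arrays, 8.24 ± 0.12 (SD, n = 8) over the ApcKO arrays and 8.15 ± 0.25 (SD, n = 9) over the IhhKO-ApcKO arrays. Its IhhKO-ApcKO values ran from 7.70 through 8.12 to 8.49, with the highest on B9, against 8.13 to 8.45 in WT and 8.05 to 8.43 in ApcKO. Without B9 the 8 other IhhKO-ApcKO arrays averaged 8.11 ± 0.23. The difference from WT was -0.12 (SE 0.09, adjusted p = 0.81) with B9 and -0.16 (SE 0.08, adjusted p = 0.70) without it.

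Ptgds, the lipocalin-type prostaglandin D synthase, was the steadiest member, with means of 6.17 ± 0.14 (SD, n = 7), 6.09 ± 0.09 (SD, n = 8) and 6.10 ± 0.06 (SD, n = 9) in WT, ApcKO and IhhKO-ApcKO. All 24 values lay between 5.98 and 6.44, and the differences were -0.08 (SE 0.05), 0.02 (SE 0.05) and -0.07 (SE 0.05) in ApcKO against WT, IhhKO-ApcKO against ApcKO and IhhKO-ApcKO against WT. Its SD within groups, 0.097, was at the 10.5th percentile of all genes, whose median was 0.149.

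Ptgfr, the receptor of prostaglandin F2α, had the lowest p-value of the 9 members in both comparisons with IhhKO-ApcKO. In WT the arrays A1, A2, A3, A4, A5, A6 and A8 read 6.36, 6.22, 5.98, 6.04, 5.86, 6.74 and 6.52. In ApcKO the arrays A9, B1, B2, B3, B4, B5, B7 and B8 read 6.93, 6.15, 6.0, 6.62, 5.79, 6.15, 6.14 and 6.37. In IhhKO-ApcKO the array B9 read 6.19 and C1 to C7 and C9 read 5.52, 5.74, 5.87, 5.53, 5.59, 5.77, 5.64 and 5.41. Thus 7 of 9 IhhKO-ApcKO arrays were under every one of the 15 arrays with intact Ihh, and B9, whose Gli1 was also at the level of WT, sat in the middle of them. Across all genes, 0.12% had at least 7 of 9 IhhKO-ApcKO arrays under all 15 others. The share was 0.334% against the ApcKO arrays alone and 0.714% against the WT arrays alone. The cut of 7 of 9 is the count of Ptgfr itself, so these shares are a description and not a test.

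WT arrays averaged 6.25 ± 0.31 (SD, n = 7) for Ptgfr, ApcKO arrays 6.27 ± 0.36 (SD, n = 8) and IhhKO-ApcKO arrays 5.70 ± 0.23 (SD, n = 9). WT and ApcKO did not differ beyond their spread (0.02, SE 0.15, 95% interval -0.28 to 0.32, limma adjusted p = 0.99). IhhKO-ApcKO against ApcKO was -0.57 (SE 0.14, 95% interval -0.86 to -0.29, limma adjusted p = 0.17). IhhKO-ApcKO against WT was -0.55 (SE 0.14, 95% interval -0.84 to -0.26, adjusted p = 0.18). Without B9 these became -0.64 (adjusted p = 0.0507) and -0.61 (adjusted p = 0.0671), still short of the threshold.

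A further comparison, chosen after these values were seen, set IhhKO-ApcKO against the mean of WT and ApcKO. There Ptgfr fell by 0.56 (SE 0.12, 95% interval -0.81 to -0.32, limma adjusted p = 0.0408), and 70 genes were called, 0.227% of those tested. Ptgfr was the 1 member of 9 past this test, with all 9 IhhKO-ApcKO arrays under the mean of the others. The call is close to the threshold: leaving out any 1 of 16 arrays (A1, A2, A6, A8, B3, B5, B7, B8 or one of the 8 arrays coded C) ended it, with adjusted p up to 0.106, and so did median centring (adjusted p = 0.0662), while without B9 the difference was -0.62 (adjusted p = 0.0116). Blocking on the code letter turned the difference to 0.36 (adjusted p = 0.70) in a fit that rests on A9 and B9 alone; A9 was the highest Ptgfr value of the series and B9 the highest of its group.

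**Figure D2:**
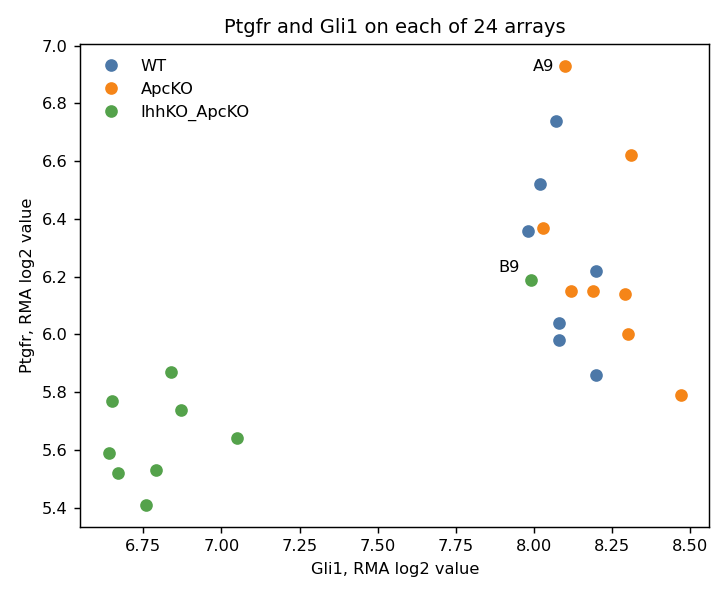
Ptgfr against Gli1 (RMA log2 values) on 24 arrays, with colour for genotype; A9 and B9 are the arrays whose code letter differs from the rest of their group. The 8 IhhKO_ApcKO arrays with Gli1 at or below 7.05 have Ptgfr at or below 5.87, and B9 lies among the WT and ApcKO arrays on both axes.

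Because the points form separate clusters, no correlation over the uncorrected values is given. After subtraction of the group means, Ptgfr and the mean of Gli1, Ptch1 and Hhip had a Pearson r of 0.17 over 24 arrays (permutation p = 0.388, adjusted p = 0.62) and a Spearman rho of -0.08 (permutation p = 0.73, adjusted p = 0.82). Without the 2 arrays farthest from the median of the targets r was -0.15, so its sign rests on them, and no relation within genotypes was detected. Of 10 smooth muscle and pericyte markers, 9 were lower in IhhKO-ApcKO than in ApcKO, 6 of them at an unadjusted p under 0.05 and 0 after adjustment, beside 13373 of all 30827 genes lower and 2.34% lower at that level. Without B9 the same counts, 9 and 6, were found. The list mean ran from 6.84 to 7.37 against 7.16 to 7.57. Acta2, the smooth muscle actin also made by myofibroblasts, was at 9.17 against 9.73 (SE of the difference 0.14, limma adjusted p = 0.23), a difference of -0.63 without B9 (adjusted p = 0.0519). Tek, an angiopoietin receptor of endothelium, was at -0.44 (SE 0.09, adjusted p = 0.0483) in IhhKO-ApcKO against the mean of the other groups, the 1 of 7 endothelial markers that passed, and at an adjusted p of 0.0528 without B9. Over the 24 arrays Tek averaged 8.42, while the other measured endothelial markers averaged from 4.67 (Prox1) to 5.91 (Tie1), so Tek stood apart from its list in level. The endothelial list mean ran from 5.51 to 6.17 in IhhKO-ApcKO, from 5.62 to 6.13 in WT and from 5.46 to 5.97 in ApcKO. Leukocyte markers had the opposite sign, with 8 of 9 higher in IhhKO-ApcKO than in ApcKO, where 56.6% of all genes were higher. Their median difference was 0.08, and 0 of 9 were higher at an unadjusted p under 0.05. The leukocyte list mean was 5.36 to 5.79 against 5.37 to 5.63. With group means removed, Ptgfr had an r of -0.121 with the smooth muscle and pericyte markers (permutation p = 0.574, adjusted p = 0.728). It had an r of -0.085 with the endothelial markers (permutation p = 0.702, adjusted p = 0.801). With the leukocyte markers r was -0.042 (permutation p = 0.84, adjusted p = 0.904). The part of these cells in the Ptgfr difference between genotypes was not tested.

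The promoter of Ptgfr is shown because Ptgfr had the lowest p-value of the members in IhhKO-ApcKO, although it passed in no planned comparison. It lies at chr3:151837479-151837778 on the minus strand of GRCm38.p6 and held none of the 6 motifs, the GLI letters included, which says only that these letters are not in this window.
Ptgfr: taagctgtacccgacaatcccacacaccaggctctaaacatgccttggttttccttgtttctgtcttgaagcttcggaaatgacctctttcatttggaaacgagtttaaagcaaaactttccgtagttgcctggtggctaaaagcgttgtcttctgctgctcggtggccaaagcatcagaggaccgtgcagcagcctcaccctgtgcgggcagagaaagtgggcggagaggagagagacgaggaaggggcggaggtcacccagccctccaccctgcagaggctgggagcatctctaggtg

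The receptors of prostaglandin E2 showed smaller differences. Ptger4 encodes EP4, which raises cyclic AMP, and ranged from 7.92 through 8.03 to 8.16 in WT, from 7.63 through 8.01 to 8.09 in ApcKO and from 7.51 through 7.82 to 8.11 in IhhKO-ApcKO. The means descended from 8.03 ± 0.10 (SD, n = 7) through 7.95 ± 0.16 (SD, n = 8) to 7.82 ± 0.22 (SD, n = 9), and no pair of neighbours in that order differed beyond its spread. IhhKO-ApcKO against WT was -0.21 (SE 0.08, 95% interval -0.38 to -0.03, limma adjusted p = 0.55), and -0.24 (adjusted p = 0.36) without B9, which held the highest value of its group. Over 24 arrays, with group means removed, Ptger4 had an r of -0.57 with each array's median over all transcript clusters, a measure of array-wide level.

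Ptger2 encodes EP2, the other receptor of prostaglandin E2 that raises cyclic AMP, and its group means were almost equal: 5.92 ± 0.35 (SD, n = 7), 5.95 ± 0.22 (SD, n = 8) and 5.95 ± 0.14 (SD, n = 9) in WT, ApcKO and IhhKO-ApcKO. Single arrays ran from 5.57 to 6.60, both in WT. The 95% intervals of the differences were -0.21 to 0.27 in ApcKO against WT, -0.23 to 0.22 in IhhKO-ApcKO against ApcKO and -0.21 to 0.26 in IhhKO-ApcKO against WT.

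Ptger3 encodes EP3, which lowers cyclic AMP. It ranged from 5.33 through 5.61 to 6.25 in WT, from 5.29 through 5.49 to 5.79 in ApcKO and from 5.29 through 5.59 to 6.07 in IhhKO-ApcKO, so the groups overlapped. ApcKO was at -0.23 from WT (SE 0.13, 95% interval -0.50 to 0.03, adjusted p = 0.97). IhhKO-ApcKO was at 0.09 (SE 0.12) from ApcKO and -0.14 (SE 0.12) from WT. B9 held the highest Ptger3 value of its group, 6.07. The 8 other IhhKO-ApcKO arrays averaged 5.545 ± 0.185 (SD), against 5.51 in ApcKO and 5.74 in WT.

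Hpgd, the 15-hydroxyprostaglandin dehydrogenase that ends prostaglandin signalling, averaged 8.19 ± 0.24 (SD, n = 7) on WT arrays, 8.14 ± 0.17 (SD, n = 8) on ApcKO arrays and 7.99 ± 0.15 (SD, n = 9) on IhhKO-ApcKO arrays. All 9 IhhKO-ApcKO arrays lay under the WT mean, but 1 of them lay under every WT array, whose lowest was A2 at 7.81. The difference from WT was -0.19 (SE 0.09, 95% interval -0.38 to -0.00486, limma adjusted p = 0.64), and that from ApcKO was -0.14 (SE 0.09). IhhKO-ApcKO array C9 held the lowest value of its group for Hpgd, Ptger4 and Ptgfr. The same array had the highest median of the antigenomic background controls in the series, 3.15, and the highest Epcam of its group, 7.96. The part of these in its low values was not tested.

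**Figure D3:**
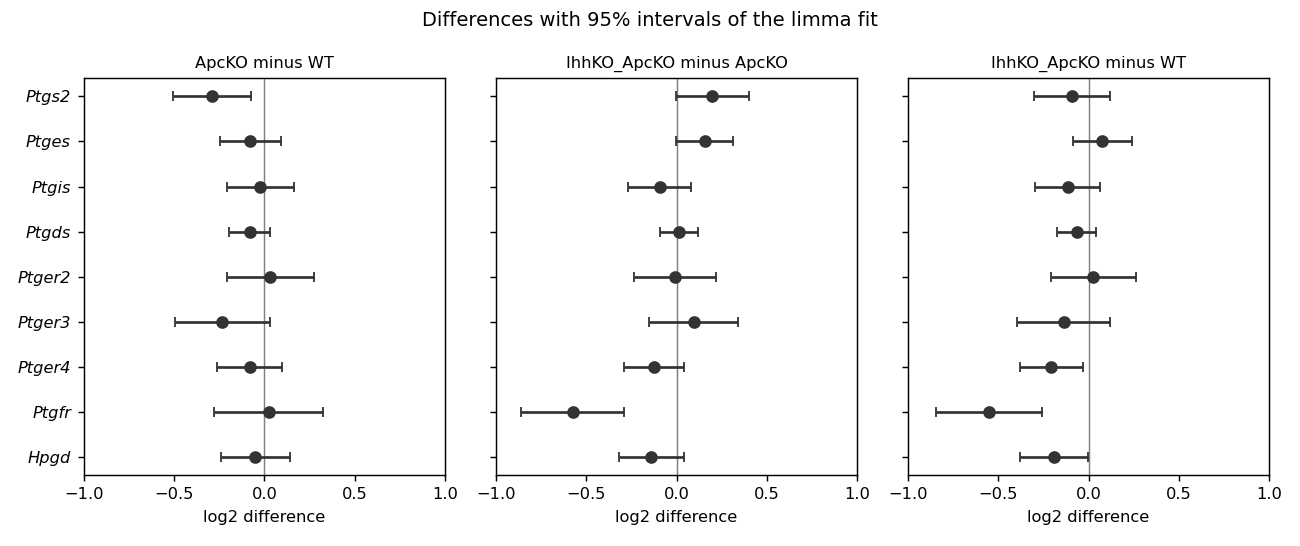
Differences of the 9 measured prostaglandin genes (log2 units) in the 3 planned comparisons; points are limma estimates and bars are 95% intervals, not adjusted for the number of genes. The interval of Ptgfr ends at -0.29 in IhhKO_ApcKO against ApcKO and at -0.26 against WT, and the interval of Ptgs2 ends at -0.08 in ApcKO against WT.

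The spread between arrays of one genotype set how small a difference could be seen. The SD within groups was 0.304 for Ptgfr, 0.264 for Ptger3, 0.241 for Ptger2 and 0.213 for Ptgs2, at the 94.3rd, 91.4th, 88.4th and 82.4th percentiles of all genes. All 9 members were above the median of the negative controls, 4.65, on all 24 arrays. Ptgds, Ptger2, Ptger3, Ptger4 and Ptgfr never exceeded those controls' 95th percentile, 8.21, so the difference in Ptgfr was measured within the range that negative controls also reach.

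The rest of the pathway was read from 33 further genes, of which 31 were measured, and none passed in the planned comparisons. In ApcKO against WT 20 of 31 were lower, beside 18695 of all 30827 genes, and the median was -0.03. The smallest p-values belonged to Tbxas1, the thromboxane synthase, at -0.29 (SE 0.10, limma adjusted p = 0.97), and Ptgr1, a reductase that inactivates prostaglandins and leukotrienes, at -0.20 (SE 0.10, adjusted p = 0.97). In IhhKO-ApcKO against ApcKO 16 of 31 were lower, with a median of -0.01. Ptger1, which encodes the calcium-coupled EP1 receptor of prostaglandin E2, stood first there at -0.34 (SE 0.09, 95% interval -0.53 to -0.16, adjusted p = 0.27).

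Ptger1 ranged from 7.53 through 7.83 to 8.16 in WT, from 7.70 through 7.93 to 8.16 in ApcKO and from 7.24 through 7.61 to 7.84 in IhhKO-ApcKO. All 9 IhhKO-ApcKO arrays lay under the ApcKO mean, and the ranges overlapped. B9, at 7.61, was at the median of its own group here, unlike for Gli1 and Ptgfr. Ptgdr, a receptor of prostaglandin D2, was second at 0.18 (SE 0.08, adjusted p = 0.94), but its values, 2.81 to 3.54, were under the median of the negative controls on every array.

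IhhKO-ApcKO against WT had 20 of 31 further genes lower, with a median of -0.03. Tbxas1 was at -0.39 (SE 0.10, adjusted p = 0.17) and Ptger1 at -0.26 (SE 0.09, adjusted p = 0.44). Tbxas1 ran from 6.21 through 6.52 to 6.77 in WT, from 5.74 through 6.32 to 6.51 in ApcKO and from 5.89 through 6.03 to 6.39 in IhhKO-ApcKO. The ranges of these groups overlapped. Against the mean of both other groups Ptger1 was at -0.30 (adjusted p = 0.14) and Tbxas1 at -0.25 (adjusted p = 0.39). By role, the 7 genes of arachidonate release, the 6 terminal synthases, the 5 receptors, the 5 genes of transport and breakdown and the 8 of the leukotriene and lipoxygenase branch each had 0 genes called in every comparison.

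**Figure D4:**
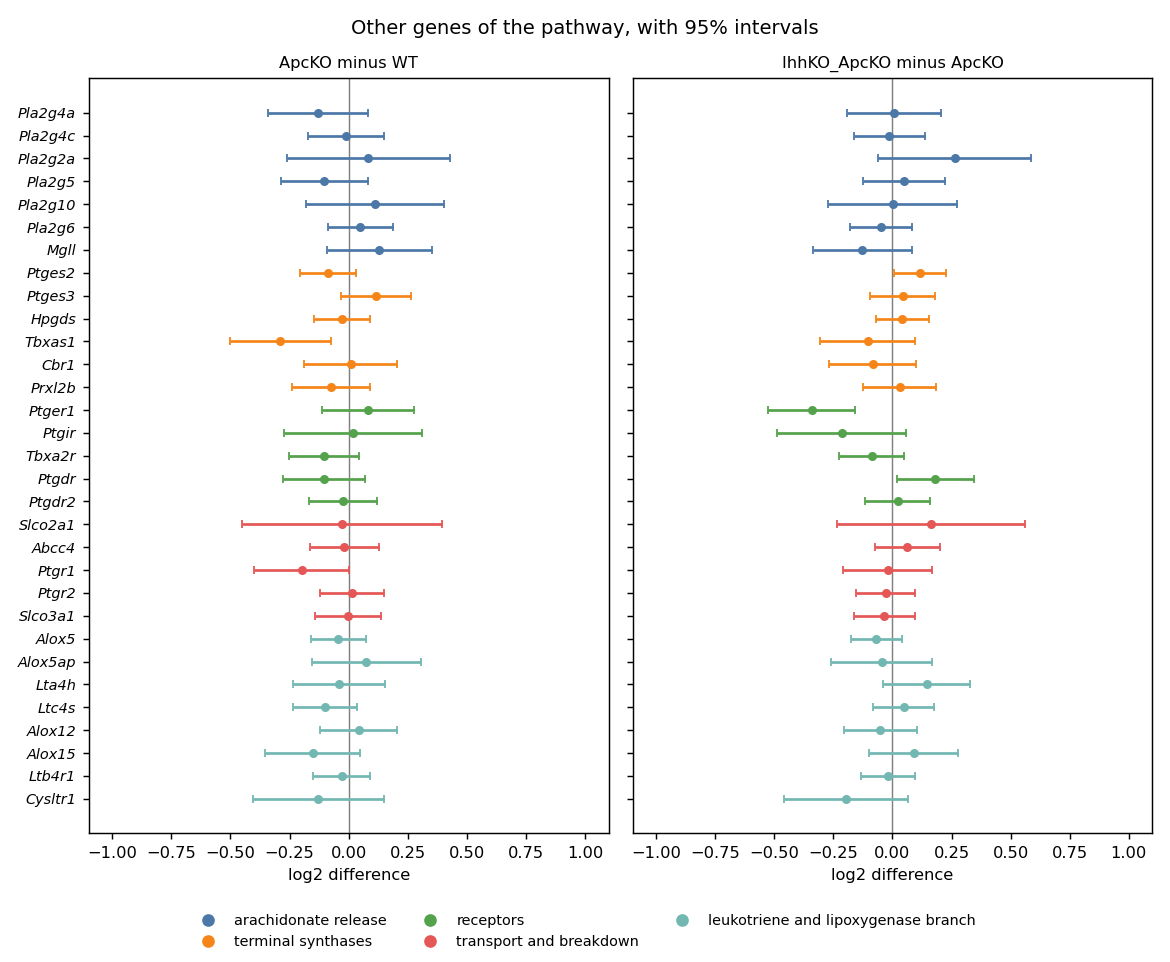
Differences (log2 units, limma estimates with 95% intervals not adjusted for the number of genes) of 31 further genes of the pathway, coloured by role, in ApcKO against WT and IhhKO_ApcKO against ApcKO. Most intervals cross 0; the interval of Ptger1 in IhhKO_ApcKO against ApcKO runs from -0.53 to -0.16.

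Genes that commonly respond together with Ptgs2 were read beside it. Of 18 genes of the response to interleukin-1 and NF-kB, 17 were higher in IhhKO-ApcKO than in ApcKO with a median of 0.23, where 56.6% of all genes were higher. At an unadjusted p under 0.05, 4 were higher (2.6% of all genes), and 0 passed after adjustment. B9 was the highest array of its group for 12 of the 18 and had a list mean of 8.41, against 7.77 to 8.11 on the other 8. Without it 17 of 18 were still higher and 4 had an unadjusted p under 0.05, but the median was 0.15. Cxcl5, a neutrophil chemokine, was at 0.32 there (SE 0.11, adjusted p = 0.54) and at 0.26 without B9 (adjusted p = 0.63). Il1b, interleukin-1 beta, was at 0.61 in IhhKO-ApcKO against WT (SE 0.18, adjusted p = 0.24) and at 0.46 without B9 (adjusted p = 0.19). Its WT mean, 4.56, was under the negative controls' median of 4.65. Il1b was above the negative controls' median on 19 of 24 arrays and above their 95th percentile on 0. In ApcKO against WT 14 of the 18 were lower, with a median of -0.10, and none passed. The 15 measured immediate early genes had a median of -0.02 in IhhKO-ApcKO against ApcKO and 0.03 in ApcKO against WT, with 0 called. Among them Ier3, at 0.37 in IhhKO-ApcKO against ApcKO (SE 0.13, adjusted p = 0.66), had the smallest p.

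Relations between the 9 members and the means of 11 marker and response lists were computed as correlations over 24 arrays of deviations from the group means, 99 pairs in all. Of these, 14 had an unadjusted permutation p under 0.05 and 1 passed after Benjamini-Hochberg adjustment. That pair was Ptgds with 8 tuft cell markers (r = 0.71, permutation p = 0.00045, adjusted p = 0.0445; Spearman's rho = 0.58, permutation p = 0.00541, adjusted p = 0.15). Without the 2 arrays farthest from the median of the list r was 0.62 and no longer passed (adjusted p = 0.17). Both sides moved with the array's median over all transcript clusters, Ptgds with an r of 0.76 and the tuft list with an r of 0.73, and the part of that level in the result was not tested. Apart from Dclk1, none of the tuft markers exceeded the negative controls' 95th percentile, 8.21, on any array, and neither did Ptgds. The pair was thus measured mostly within the range that negative controls also reach.

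The other pairs failed the adjustment. Ptgs2 with the immediate early genes had r = 0.50 (permutation p = 0.024, adjusted p = 0.24) and rho = 0.51 (permutation p = 0.0228, adjusted p = 0.22), and 0.41 without the 2 farthest arrays. Ptgs2 with the interleukin-1 and NF-kB response genes had r = 0.33 (permutation p = 0.129, adjusted p = 0.47) and rho = 0.47 (permutation p = 0.0354, adjusted p = 0.22). Without the 2 farthest arrays that r was 0.67, so its size depends on them. Ptges with the epithelial markers had r = -0.57 (permutation p = 0.00361, adjusted p = 0.18) and rho = -0.61 (permutation p = 0.00337, adjusted p = 0.15), so arrays with more epithelial signal had less Ptges, and -0.56 without the 2 farthest. Ptger4 with the Hedgehog targets had r = 0.54 (permutation p = 0.0152, adjusted p = 0.24) and rho = 0.44 (permutation p = 0.0428, adjusted p = 0.25), and 0.53 without the 2 farthest. Both moved against the array's median over all transcript clusters, Ptger4 with an r of -0.57 and the Hedgehog targets with an r of -0.46. The part of that level in this pair was not tested. Hpgd with the smooth muscle and pericyte markers had r = 0.50 (permutation p = 0.0176, adjusted p = 0.24) and rho = 0.57 (permutation p = 0.00617, adjusted p = 0.15). Ptger3 with the mesothelial markers had r = 0.56 (permutation p = 0.0145, adjusted p = 0.24) and rho = 0.48 (permutation p = 0.0361, adjusted p = 0.22), which dropped to 0.31 without the 2 farthest arrays and so rests on them.

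As a description, the genes whose deviations from the group means were most like each member's over 24 arrays were picked from all genes, so high values arise from the search itself. For Ptgfr they were Ephx1, an epoxide hydrolase (r = 0.78), Aox3, an aldehyde oxidase (r = 0.77), and Mir148a (r = 0.76). The probe sets of Mir148a, Olfr738, Gm11418 and 1600010M07Rik, named here, had means of 2.38, 3.31, 2.92 and 2.94, below the negative controls' median of 4.65. For Ptges they were Cotl1, an actin-binding protein, Lpin1 and Ppp6r2 (r from 0.83 to 0.84). For Ptger4 they were Gm6055, Ddhd2 and Il4ra, the interleukin-4 receptor (r from 0.75 to 0.77), and for Hpgd they were Gcc2, Rad50 and Pcmtd1 (r from 0.77 to 0.86). For Ptgis they were Olfr738, Lrrn4cl and Cdon (r from 0.74 to 0.79), and for Ptger2 Slc9a3r2, Zfp536 and Ppp1r14a (r from 0.78 to 0.86). For Ptgds they were Ghrhr, Slc22a12 and Fam178b (r from 0.92 to 0.93), for Ptger3 Gm13588, Gm3788 and Ndufb2 (r from 0.75 to 0.78), and for Ptgs2 Gm25094, Gm11418 and 1600010M07Rik (r from 0.70 to 0.72). Among pairs of members, r ran from -0.49 (Ptges with Ptger3) to 0.51 (Ptgis with Ptgfr).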

How the data were processed

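RNA from 24 sorted samples (2 ng each, per the labels) was amplified and hybridised to Affymetrix Mouse Transcriptome Array 1.0 chips. The authors deposited log2 values summarised by RMA, per the submitters' processing notes; no annotation release or software version is named in the labels. The table holds 72688 probe sets, of which 6732 are controls. Of 65956 transcript clusters, 31388 were named by 1 gene through the platform annotation and RefSeq, 1362 had several genes and 33206 had none. The probe set with the highest mean stood for each of 30827 genes, 423 of which had more than 1. Array medians lay between 4.96 and 5.14, array pairs correlated at 0.977 or more, and no 2 arrays held identical values; array data carry no read depth, and the number of arrays limits the precision.

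All 24 arrays were fitted in 1 model with a mean per genotype by lmFit and eBayes of limma 3.58.1, run in R 4.3.3, and p-values were adjusted by Benjamini-Hochberg over all 30827 genes, with a call at 0.05. A 4th comparison was added after the values were seen. Correlations used 100000 permutations. The fit was tested on simulated data. The genes and lists were chosen with earlier results of these data known. Named genes were all members, the further pathway genes with the 2 smallest p-values per comparison, list genes that passed or had the smallest p, and the 3 genes most like each member; lists of mast cell and mesothelial markers were also read. Alternatives were median centring, a filter on low genes, a trended robust fit, array weights, only the groups compared, the code letter as a block, the mean of a gene's probe sets, each array left out, and the lists without B9, added after the values were seen. Pla2g4b, Akr1b3, Pdgfra, Cd74, Egfl7 and Junb were not analysed here.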

Additional observations from a re-analysis of the deposited data

How the results depend on the processing

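Under all 31 alternatives no prostaglandin gene passed in a planned comparison; the adjusted p of Ptgfr ran from 0.0507 to 0.997 in IhhKO-ApcKO against ApcKO and from 0.0671 to 0.46 against WT. In the comparison added after the values were seen, Ptgfr passed under 13 of 31, failing with median centring (-0.55, adjusted p = 0.0662), with the code letter block and without 16 single arrays. Among those passes, the fit with only the compared groups repeated the main fit, because this comparison uses every group. The mean of a gene's probe sets left the Ptgfr values as they were, because Ptgfr has 1 probe set. No paired analysis was possible because the groups share no replicate code. Counts of called genes moved. ApcKO against WT gave 0, and 113 with the code letter as a block. IhhKO-ApcKO against ApcKO gave 14, then 8 with median centring, 23 over genes at or above the median gene's mean, 65 with array weights, 53 with the letter block and 8 to 41 with 1 array left out. IhhKO-ApcKO against WT gave 25, then 16, 45 and 84 with centring, weights and letter block, 7 with only the compared groups and 12 to 67 with 1 array left out. The added comparison gave 70, then 34 with centring, 119 with weights and 43 to 119 with 1 array left out. The cause was not tested.

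With the letter block, which rests on A9 and B9, signs turned in ApcKO against WT for Ptgis (0.16) and Hpgd (0.20). In IhhKO-ApcKO against ApcKO they turned for Ptges (-0.0906), Ptgis (0.27), Ptgds (-0.00315), Ptger2 (0.00546), Ptger4 (0.12) and Ptgfr (0.0122). Against WT they turned for Ptges (-0.52), Ptgis (0.44), Ptger3 (0.12), Ptgfr (0.70) and Hpgd (0.11), and in the added comparison for Ptgs2 (-0.0803), Ptges (-0.31), Ptgis (0.35), Ptger3 (0.33), Ptgfr (0.36) and Hpgd (0.0115). None of these passed. Near 0, Ptgis in ApcKO against WT turned to 0.000497 with median centring, Ptgfr in ApcKO against WT to -0.0474 with array weights, and Ptger2 in IhhKO-ApcKO against ApcKO to 0.030 with array weights. With 1 array left out, ApcKO against WT ran from -0.0505 to 0.00687 for Ptgis, -0.0259 to 0.146 for Ptger2, -0.0712 to 0.105 for Ptgfr and -0.114 to 0.00888 for Hpgd. Ptger2 ran from -0.0559 to 0.0231 in IhhKO-ApcKO against ApcKO, -0.0325 to 0.139 against WT and -0.0234 to 0.0663 in the added comparison, where Ptger3 ran from -0.0801 to 0.0210. The correlation of Ptgds with tuft markers was 0.62 without the 2 farthest arrays.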
